A study of Drosophila melanogaster with 9 samples.

Results

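The innexins are the gap junction proteins of insects, and 7 of the 8 Drosophila melanogaster innexin genes considered here had a probe set on the arrays: ogre, Inx2, Inx3, Inx5, Inx6, Inx7 and zpg, with 1 probe set each. Members were taken by gene name from the platform annotation, through current or former symbols, and no probe set was named shakB there. The 7 probe sets belong to a table of 18769 that were tested. The arrays measured RNA of cells sorted from larval body walls by the membrane marker mCD8:GFP, 80 body walls to a sample, taken from wandering larvae of the third instar reared at 25 °C. All 9 samples carried UAS-mCD8:GFP under the driver GAL4[21-7], which the labels tie to every class of da (dendritic arborization) neuron, a kind of larval sensory cell with branched dendrites. Control carried nothing more (+/GAL4[21-7], UAS-mCD8:GFP). Ab ME also carried UAS-abL, as a single copy, a transgene meant to supply the transcription factor Abrupt (gene ab). Kn ME carried UAS-knL:HA on the chromosome opposite the driver, meant to supply Knot (gene kn). Neither factor was seen to be raised on these arrays, as given at the end, so with Abrupt and with Knot refer to the labels only. Each group held 3 biological replicates, each with 1 array and pooled larvae, and larval age in hours is not given in the labels.

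A gap junction is a channel that joins the cytoplasm of neighbouring cells and passes ions and small molecules such as calcium and IP3. In flies each cell contributes a hemichannel built of innexin subunits, either of 1 kind or mixed. Inx2 is known as the widely used subunit of epithelia and glia, where it can form mixed channels with ogre (also called Inx1) or with Inx3. shakB is known for electrical synapses, and zpg (also called Inx4) for the junctions between germ cells and soma.

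Inx2, ogre and Inx3 were all lower on the arrays labelled Ab ME than with the marker alone, by 6.75- to 10.2-fold. On the arrays labelled Kn ME, Inx2 and ogre fell as well, by 3.24- and 3.34-fold, and the Kn ME arrays of all 3 genes lay between those of the other groups. The other 4 innexins gave values below the median of all probe sets on every array and passed no test. Values are the deposited log2 signals, so a difference of 1 is a 2-fold change, and differences were tested with limma, adjusted by the Benjamini-Hochberg method over 18769 probe sets, with a threshold of 0.05.

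**Figure D1:**
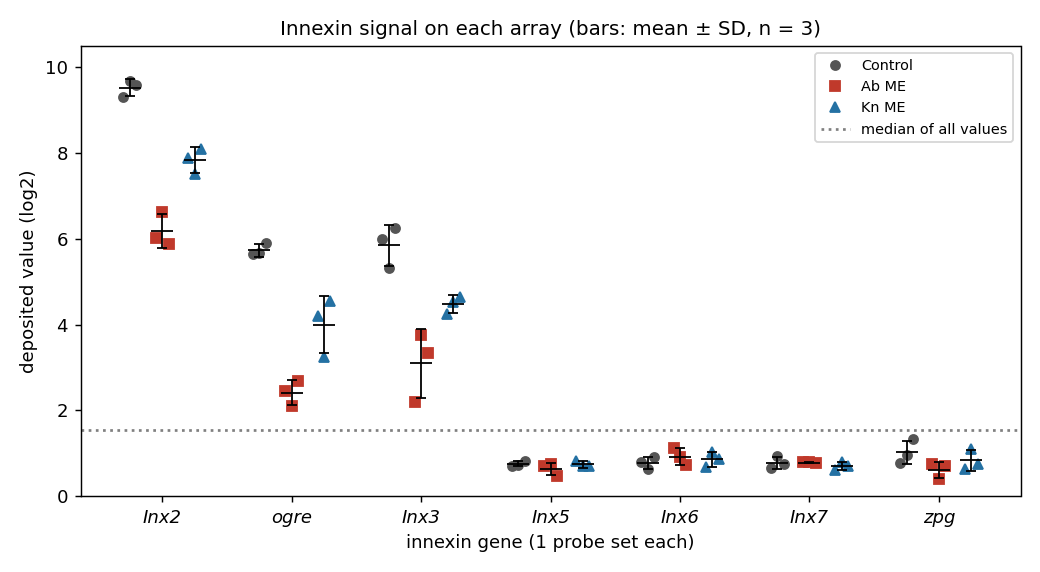
Deposited log2 value (y axis) of each innexin probe set (x axis) on the 9 arrays; circles are Control, squares Ab ME and triangles Kn ME, bars give the mean ± SD (n = 3), and the dotted line is the median of all values, 1.54. Inx2, ogre and Inx3 separate into 3 groups that do not overlap, with Control highest and Ab ME lowest, while the other 4 genes stay below the dotted line on every array.

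Inx2 read 9.32, 9.68 and 9.59 in Control. With Abrupt it read 6.02, 6.63 and 5.89, and with Knot 7.89, 7.51 and 8.10. The 3 groups did not overlap, with Control highest and Ab ME lowest. The group means were 9.53 ± 0.19, 6.18 ± 0.39 and 7.83 ± 0.30 (SD, n = 3 each). Inx2 fell by 3.35 log2 units in Ab ME (SE 0.24, 95% interval -3.89 to -2.81, limma adjusted p = 0.000182). In Kn ME it fell by 1.695 (SE 0.24, interval -2.24 to -1.15, limma adjusted p = 0.00781). This gene encodes the subunit that both other lower members are known to pair with.

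The gene ogre, named for its optic lobe phenotype and known in glia of the developing nervous system, read 5.64, 5.67 and 5.92 in Control. It read 2.45, 2.12 and 2.69 with Abrupt and 4.20, 3.26 and 4.56 with Knot. Again the groups were fully separate, and the Kn ME arrays were the most spread, with replicate 2 the lowest of them. The means were 5.74 ± 0.15, 2.42 ± 0.29 and 4.002 ± 0.67 (SD, n = 3 each). In Ab ME ogre fell by 3.32 log2 units (SE 0.32, interval -4.05 to -2.60, limma adjusted p = 0.000554). In Kn ME it fell by 1.74 (SE 0.32, interval -2.46 to -1.02, limma adjusted p = 0.0199). That second call was lost without Kn ME replicate 1 (adjusted p = 0.0556), with array weights per group (0.0626) and with only the 6 arrays compared (0.0704), and held in 14 of 17 alternatives. The probe set of ogre carries the array maker's suffix for probes that match several transcripts, though the annotation names ogre alone.

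Inx3, a subunit known to join Inx2 in mixed channels of the embryonic epidermis, read 5.99, 5.31 and 6.25 in Control. It read 2.19, 3.76 and 3.34 with Abrupt and 4.24, 4.54 and 4.64 with Knot. The groups did not overlap, and Ab ME replicate 1 was the lowest array. The means were 5.85 ± 0.48, 3.10 ± 0.81 and 4.48 ± 0.21 (SD, n = 3 each). Inx3 fell by 2.75 log2 units in Ab ME (SE 0.40, interval -3.67 to -1.84, limma adjusted p = 0.00347). In Kn ME the difference was -1.38 (SE 0.40, interval -2.29 to -0.46) and did not pass (limma adjusted p = 0.0931). It passed in 2 of 17 alternatives, without Ab ME replicate 1 (adjusted p = 0.0393) and after another quantile normalization (0.0404).

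In sum, 3 of 7 innexin probe sets fell and 0 rose in Ab ME, where 5.25% of all probe sets were called lower and 14% were called in either direction. In Kn ME, 2 fell and 0 rose, against 1.95% called lower and 5.29% in either direction. The arrays of the 3 lower genes did not overlap with Control in either group, as was so for 34.9% of all probe sets in Ab ME and 21.8% in Kn ME. Both comparisons use the same Control arrays. The count of 3 in Ab ME was the same under all 17 alternatives, while that in Kn ME ranged from 1 to 3. The moderated F test for any difference among the 3 groups called the same 3 genes (adjusted p = 0.000539 for Inx2, 0.00155 for ogre and 0.01004 for Inx3), where 9.64% of all probe sets were called. In RNA from bulk samples, fewer cells of a type and less RNA per cell cannot be told apart, and this holds for every difference given here.

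**Figure D2:**
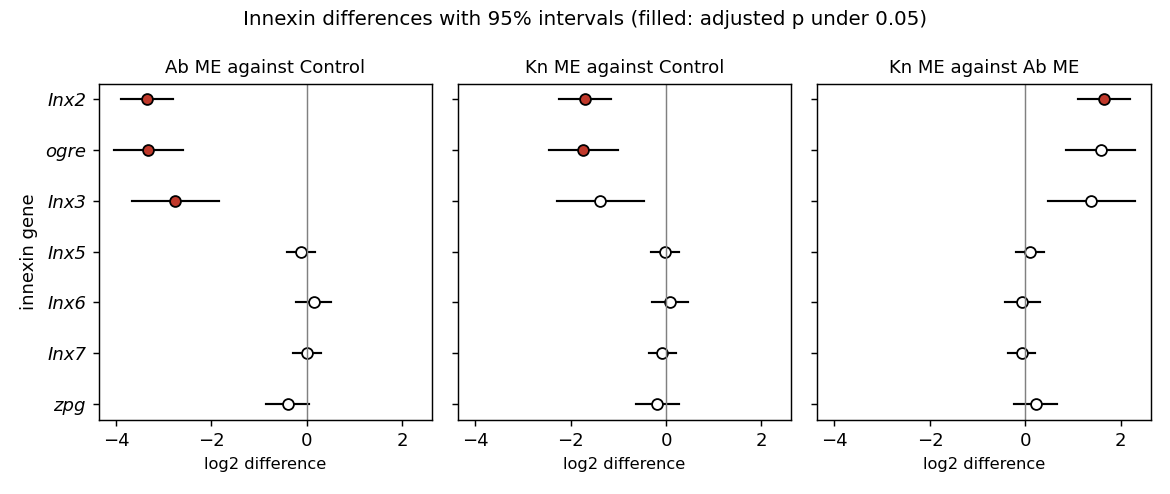
Log2 difference (x axis) of each innexin gene (y axis) in the 3 comparisons, with lines for the 95% interval of the limma fit and filled points for an adjusted p under 0.05. Inx2, ogre and Inx3 lie at -3.35 to -2.75 for Ab ME against Control and at -1.74 to -1.38 for Kn ME against Control, while the intervals of the other 4 genes include 0 in every panel.

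The direct comparison of Kn ME with Ab ME asks whether the innexin levels differ between the factors. Inx2 was higher in Kn ME by 1.65 log2 units, or 3.15-fold (SE 0.24, interval 1.11 to 2.20, limma adjusted p = 0.0305). For ogre the difference was 1.58 (SE 0.32, interval 0.86 to 2.31, limma adjusted p = 0.0914). For Inx3 it was 1.38 (SE 0.40, interval 0.47 to 2.29, limma adjusted p = 0.274). The arrays of both groups were separate for all 3 genes, as they were for 19.5% of all probe sets, and 0.517% of all probe sets were called, 0.266% as higher in Kn ME. The call of Inx2 was lost in 6 of 17 alternatives, 5 of which left out 1 array, without Ab ME replicate 1 (adjusted p = 0.112) or 3 (0.0818) and without Kn ME replicate 1 (0.0955), 2 (0.0597) or 3 (0.114). Of 17 alternatives ogre passed in 3, among them without Kn ME replicate 2 (adjusted p = 0.0338) and with array weights per group (0.0361).

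Whether the 3 lower innexins fell by different amounts was asked through the log2 ratio between each pair of them on each array, whose change between groups is interpretable while its level is not. The ratio of Inx2 to ogre differed by -0.025 log2 units between Ab ME and Control (95% interval with unequal variances -1.55 to 1.50, exact permutation p = 1). Between Kn ME and Control it differed by 0.044 (interval -0.73 to 0.82, exact permutation p = 0.8). The ratio of Inx2 to Inx3 differed by -0.59 in Ab ME (interval -2.03 to 0.85, exact permutation p = 0.4). Over 9 such tests, 2-sided, the smallest p was 0.4 and all Benjamini-Hochberg values were 1, in a design of 3 against 3 arrays whose smallest possible p is 0.1. The 9 intervals reached down to -2.60 and up to 2.17 log2 units, so unequal falls of that size are not told apart from equal ones.

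The remaining 4 innexins were dim on all arrays. Inx5 ranged from 0.48 to 0.83, Inx6 from 0.64 to 1.13, Inx7 from 0.62 to 0.93, and zpg from 0.41 to 1.32, while the array medians lay between 1.44 and 1.67. Inx6 and Inx7 are known from neurons of the adult fly brain. Detection calls were not used here, so these values may be background, and RMA compresses differences between such dim probe sets. The germline innexin zpg read 0.78, 0.96 and 1.32 in Control and 0.74, 0.41 and 0.72 in Ab ME. These arrays did not overlap, as was so for 34.9% of all probe sets, and the difference of -0.401 did not pass (SE 0.20, limma adjusted p = 0.211). The other differences of these 4 genes ranged from -0.19 to 0.22 over the 3 comparisons, with adjusted p from 0.56 to 0.988.

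Genes of other cell junctions and of calcium release were examined beside the innexins, as lists of known members that were chosen with earlier results of these data known. Of 24 septate junction genes measured, which seal epithelia and glial sheaths, 2 fell and 0 rose in Ab ME, with a list median of 0.11 log2 units, against a median of -0.01 over all named genes. The falls were nrv2, a sodium pump beta subunit (-0.63, SE 0.13, limma adjusted p = 0.0165), and bou, a Ly6 protein needed for septate junctions (-1.08, SE 0.27, adjusted p = 0.0334). In Kn ME, 0 of the 24 passed, with a median of 0.17. Over all named genes, 5.96% fell and 11.2% rose with Abrupt, and 2.32% fell and 4.18% rose with Knot.

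Of 15 adherens junction and apical polarity genes, 2 fell and 0 rose in Ab ME, and 0 passed in Kn ME. Over all named genes, 5.96% fell in Ab ME and 2.32% in Kn ME. The list medians were -0.06 and 0.13, and their signs turned with centring in Ab ME (0.11) and with another quantile normalization in Kn ME (-0.04). The falls were those of sdt, an apical scaffold gene, at its brightest probe set (-3.77, SE 0.59, limma adjusted p = 0.00482), and sdk, an immunoglobulin adhesion gene (-1.47, SE 0.28, adjusted p = 0.0114). Of the 5 other sdt probe sets, 2 also fell (-1.34 and -0.52) and 3 did not pass. The E-cadherin gene shg, whose product is known to bind Inx2 in fly epithelia and which is named here after its values were seen, differed by -0.72 (SE 0.27, limma adjusted p = 0.117), with a Control mean of 1.91.

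The list medians of 8 genes of IP3 signalling and the calcium store were 0.67 for Ab ME and 0.57 for Kn ME. Over all named genes, 11.2% rose in Ab ME and 4.18% in Kn ME. Of these 8 genes, 1 rose and 0 fell in each group, which in Ab ME is near the share over all genes. The gene was Orai, the plasma membrane calcium channel opened by store depletion, at 1.68 in Ab ME (SE 0.20, limma adjusted p = 0.00142) and 1.61 in Kn ME (SE 0.20, adjusted p = 0.00514). Its other probe set rose by 2.18 in Ab ME (adjusted p = 0.0257) and differed by 2.04 in Kn ME (adjusted p = 0.0586).

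**Figure D3:**
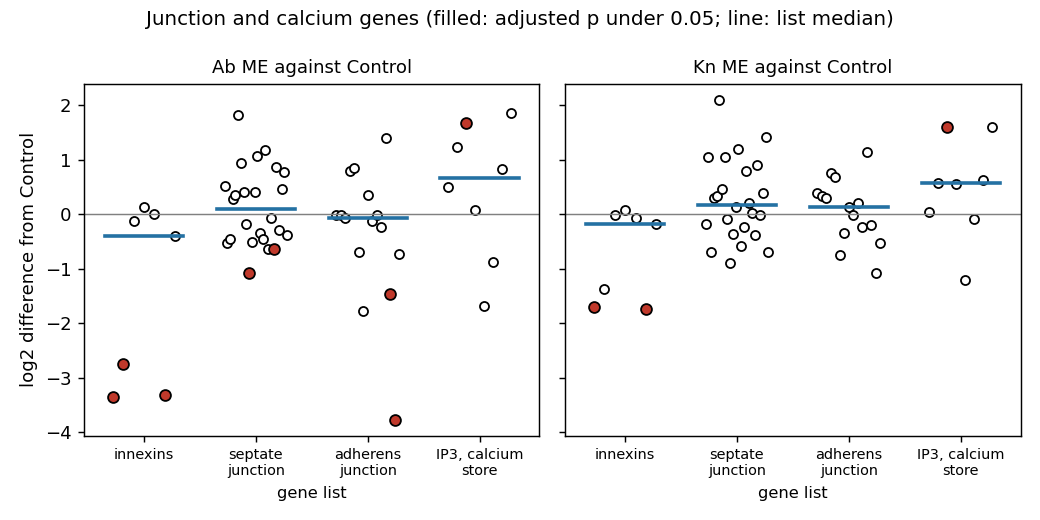
Log2 difference from Control (y axis) of each measured gene of 4 lists (x axis) in Ab ME (left) and Kn ME (right), 1 point per gene; filled points passed the limma test and lines are list medians. In Ab ME 3 of 7 innexins, 2 of 24 septate junction genes and 2 of 15 adherens junction genes lie lower as filled points, and in Kn ME the filled points are 2 innexins and Orai.

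The genes whose signal followed the innexins most closely over the 9 arrays were found by Pearson's r among 11981 other named genes, as a description, since these points share 3 groups. For Inx2 they were side-VI (0.985), CG12075 (0.983), lft (0.982), the larval cuticle protein gene Lcp9 (0.98) and Vajk2 (0.979). For ogre they were CG5391 (0.979), ImpL2, a secreted insulin-binding protein gene (0.979), the adhesion gene Fas1 (0.978), bero (0.974) and Vdup1 (0.972). For Inx3 they were the PDZ protein gene bbg (0.993), Pura (0.99), CG3777 (0.982), sas, an apical epithelial receptor gene (0.979), and PCB, pyruvate carboxylase (0.974). Among all genes ranked by likeness to Inx2, ogre stood at 25 (r = 0.964) and Inx3 at 90 (r = 0.931). All 15 of these non-innexin genes had lower means in Ab ME than in Control, with means in Kn ME between the others. Their choice by likeness to the innexins on these same arrays brings that order with it. Neither the order nor a test of these genes is therefore a separate result. Lcp9, for example, averaged 9.66 with the marker alone, 5.82 with Abrupt and 7.87 with Knot, and its difference passed in Ab ME (-3.84, limma adjusted p = 0.00124) but not in Kn ME (-1.79, adjusted p = 0.0559).

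Markers of several cell types that can carry innexins moved with the groups. For reference, 5.96% of all named genes fell and 11.2% rose with Abrupt, and 2.32% fell and 4.18% rose with Knot. Of 13 epidermis and cuticle genes 5 fell and 0 rose with Abrupt, and 3 fell and 0 rose with Knot. The list medians were -0.91 with Abrupt and -0.72 with Knot. The summed level of this list is weighted to bright genes such as Ddc. Its log2 ranged from 9.64 to 10.4 with the marker alone, from 5.67 to 6.56 with Abrupt and from 7.29 to 8.14 with Knot. This order without overlap, which the summed innexin level also had, was found for the neuron and fat body lists too, given below. The innexin sum is mostly Inx2, the brightest member, while the innexin list medians were -0.40 with Abrupt and -0.19 with Knot. How common this order is over all probe sets was not counted. Of the epidermis and cuticle genes, Ddc, dopa decarboxylase of the cuticle, read 8.40, 8.68 and 9.31 on the Control arrays. It read 3.99, 4.66 and 4.52 with Abrupt, and 5.61, 6.38 and 6.96 with Knot. Of 10 glial genes 2 fell and 1 rose in each group, and their summed level was 8.89 to 9.37, 7.69 to 8.04 and 7.81 to 8.21. The list medians were -0.22 and -0.56. Glutamine synthetase Gs2 fell by 3.31 and by 2.45 (limma adjusted p = 0.000914 and 0.00916) and axo fell too (-1.58 and -1.355), while loco, a regulator of G protein signalling, rose by 1.625 and by 1.68 (limma adjusted p = 0.0209 and 0.0352). The defining glial factor repo was near the median of all values or below it, at 1.23 to 2.02 with the marker alone, 0.79 to 1.50 with Abrupt and 0.61 to 0.91 with Knot.

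The counts that follow stand against shares over all named genes of 5.96% lower and 11.2% higher with Abrupt. With Knot those shares were 2.32% and 4.18%. Of 7 tracheal genes 4 fell and 1 rose with Abrupt, and 3 fell and 1 rose with Knot. Their summed levels were 9.06 to 9.53, 8.43 to 8.65 and 8.02 to 8.26. With Abrupt the tracheal sum is mostly sty, the gene that rose. The means of sty were 6.66 for the marker alone, 8.31 with Abrupt and 7.48 with Knot. By list median the tracheal fall was larger with Abrupt (-1.46) than with Knot (-1.18), opposite to the order of these sums. Of 14 muscle genes 8 fell in Ab ME and 0 in Kn ME, with 0 rises, and summed levels of 10.45 to 11.7, 8.05 to 8.67 and 10.4 to 10.7. Of 5 fat body genes 2 fell with Abrupt and 0 with Knot, with 0 rises and levels of 5.81 to 7.27, 4.11 to 4.47 and 4.97 to 5.68. Hemocyte genes went the other way, with 14 of 15 higher in Ab ME and 8 in Kn ME, and levels of 11.7 to 13.3, 14.6 to 14.63 and 13.96 to 14.3. The part of these cell types in the innexin differences was not tested.

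**Figure D4:**
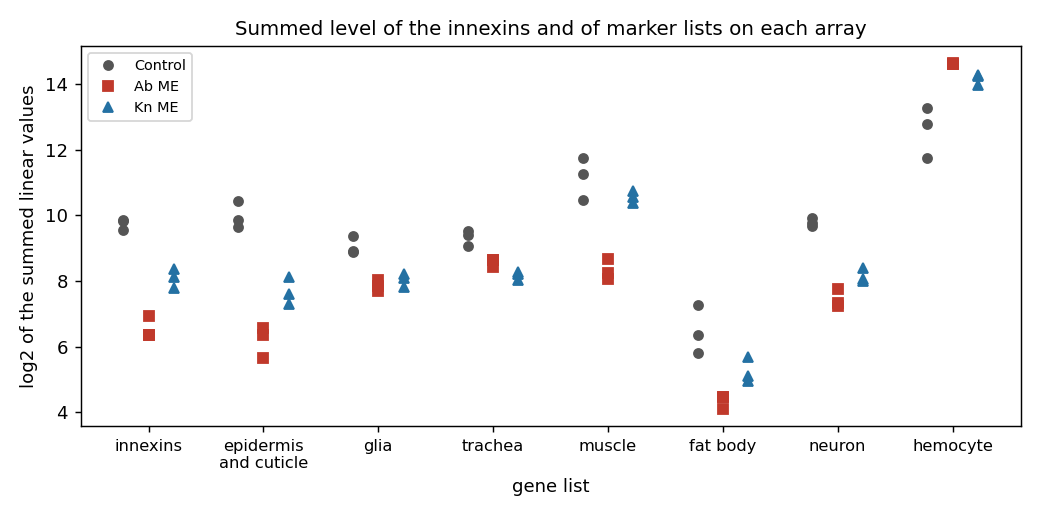
Log2 of the summed linear values (y axis) of the innexins and of 7 marker lists (x axis) on each array, in the same symbols as the plot of innexin values. The innexins and the epidermis and cuticle, fat body and neuron lists run from Control (highest) through Kn ME to Ab ME (lowest) without overlap. The hemocyte list is lowest in Control. The innexin sum is mostly Inx2.

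The labelled cell type was checked against neuronal markers. The pan-neuronal gene elav read 6.06 to 6.46 with the marker alone, 4.70 to 4.94 with Abrupt and 5.01 to 5.69 with Knot. Of 11 neuronal genes 6 fell in Ab ME and 4 in Kn ME, with 0 rises, and their summed level was 9.69 to 9.91, 7.23 to 7.77 and 7.99 to 8.41. Among all named genes, 5.96% fell and 11.2% rose in Ab ME, and 2.32% fell and 4.18% rose in Kn ME. Genes of da neurons moved both ways. Of 7 measured, 3 rose and 2 fell in Ab ME, and 2 rose and 1 fell in Kn ME, while their summed level was 8.52 to 8.87, 9.34 to 9.42 and 8.92 to 8.95. The median difference of these 7 was -2.15 and -1.85, opposite in sign to the summed level. In Ab ME the rises were Ten-m (1.93), ct at the brightest of its 3 probe sets (1.62) and ppk29 (1.49), and the falls were ppk26, a channel subunit of nociceptive da neurons (-5.69), and pros (-4.43). In Kn ME Ten-m (1.33) and ct (1.10) rose and ppk26 fell (-2.03). The dimmest ct probe set had a lower mean in both groups than in Control, opposite to the other two. Most hemocyte markers gave signal beside the neuronal genes on every array, though lz, PPO1 and PPO2 were near the array median on some Control arrays. No probe set was named ab. At the brightest of its 2 probe sets, kn was not higher on the Kn ME arrays (0.61 ± 0.08) than in Control (2.76 ± 1.53, SD, n = 3 each). Its mean in Ab ME was 0.61 as well, and the Control arrays read 1.00, 3.75 and 3.53. Abrupt could therefore not be checked, and kn at its brightest probe set did not show the gain that the Kn ME label implies. The labels are used as given. Across probe sets, the correlation between replicates was lowest among the Control arrays (r = 0.93 to 0.944), against 0.984 to 0.985 for Ab ME and 0.974 to 0.977 for Kn ME.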

How the data were processed

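Per the submitters' processing notes the arrays were processed with RMA. The deposited values are taken as log2 signals, the base being inferred from their range. The version and the arrays normalized together are not given in the sources used here. Hybridization dates and detection calls were not used here, so batch and signal over background stay unknown. Precision is set by the number of arrays. Of 18952 probe sets, 183 controls were left out. Of the 18769 tested, 13647 had 1 gene symbol, 402 several and 4720 none. Only the first kind was named, through gene identifiers of the Release 6 gene table. The brightest probe set stood for a gene in list counts. No 2 arrays held identical values.

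All 9 arrays entered 1 linear model, whose terms were the groups, fitted with limma 3.58.1 in R 4.3.3 (6 residual and 2.44 prior degrees of freedom). The fit was checked on simulated data. Tests are 2-sided, with Benjamini-Hochberg adjusted p over 18769 probe sets. A list's summed level is the log2 of the sum of its genes' linear values. Nothing in the labels says how the biological replicates were separated, so p-values measure the spread between these samples. The members and lists were chosen with earlier results of these data known. Named were all innexin probe sets, the pathway genes past the threshold (at most 4 a list), and the 5 genes most like each called innexin. The gene shg, which did not pass, was named besides. Up to 3 markers a list were named, but more for glia and da neurons. Alternatives were another quantile normalization, centring on array medians, leaving out dim probe sets, a trend and robust prior, array weights per group, only the 6 arrays compared, the replicate block, the mean of a gene's probe sets and leaving out each array. No sequences were used.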

Additional observations from a re-analysis of the deposited data

How the results depend on the processing

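The falls of Inx2, ogre and Inx3 in Ab ME passed under all 17 alternatives, with differences of -3.57 to -3.18, -3.55 to -3.15 and -3.09 to -2.30 and adjusted p up to 0.0021, 0.00366 and 0.0188. In Kn ME Inx2 passed in all 17 (up to 0.0339). No called innexin difference changed sign. The 4 dim innexins passed in none of 192 such values, 13 of which changed sign (-0.06 to 0.091), and gave no value with dim probe sets left out. The count of innexins called in Kn ME became 1 with array weights per group and with only the 6 arrays compared, and ranged from 1 to 3 leaving out each array. Between Kn ME and Ab ME it became 2 with array weights per group and ranged from 0 to 1 leaving out each array. Over all probe sets, the count of 2622 in Ab ME became 1726 with only the 6 arrays compared and 1400 to 3249 leaving out each array. The 992 of Kn ME became 605 with array weights per group, 337 with only the 6 arrays compared and 347 to 1609 leaving out each array. The 97 between Kn ME and Ab ME became 149 with dim probe sets left out, 327 with array weights per group, 241 with only the 6 arrays compared and 26 to 139 leaving out each array. Leaving out arrays, or all but 6, reduces the samples; the cause of the other moves was not tested. Centring shifted the Ab ME differences of all probe sets by 0.17 at the median, from -0.06 to 0.11, and the share of calls that were higher from 62.4% to 76.2% (49.6% with another quantile normalization). In Kn ME that share was 63.1%, 72.4% and 48.1%, and between Kn ME and Ab ME 51.5%, 45.3% and 62%. In Ab ME, another quantile normalization gave 4 septate junction falls for 2, 1 calcium store fall for 0 and 1 fat body fall for 2. It also gave 5 neuron falls for 6, 6 epidermis and cuticle falls for 5, and 12 hemocyte rises for 14. Centring gave 3 calcium store rises for 1, 15 hemocyte rises for 14 and 1 septate junction rise for 0, the last in Kn ME too. In Kn ME, another quantile normalization gave 5 neuron falls for 4, 7 hemocyte rises for 8 and 1 da neuron rise for 2. There centring gave 10 hemocyte rises for 8, 2 tracheal falls for 3 and 3 da neuron rises for 2. Same-numbered arrays deviated from their group means together at r = 0.034 to 0.272, so the numbers were not taken to pair the samples. With the replicate block, between Kn ME and Ab ME, ogre passed (adjusted p = 0.0465) and Inx2 did not (0.0597), the sixth of its 6 losses, and 3 innexins passed in Ab ME and 2 in Kn ME.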

Other observations

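The genes ogre, Inx7 and Inx2 stand close together on the X chromosome in the Release 6 gene order, with bou and 2 noncoding RNA genes among them. Of these, bou and the noncoding RNA gene next to ogre overlap ogre itself. Whether the probe sets of bou and ogre share sequence was not checked. In Ab ME, where ogre and Inx2 both fell, bou fell too (5.83 in Control and 4.75 in Ab ME, -1.08, limma adjusted p = 0.0334). Inx7 stayed dim, with a difference of 0.004 (limma adjusted p = 0.988). The nearest measured genes outside the run did not pass in either group: cm, next to Inx2, differed by -0.08 in Ab ME and -0.40 in Kn ME (adjusted p = 0.913 and 0.627), and CG3040, next to ogre, by 0.33 and 0.43 (adjusted p = 0.543 in both). One gene further from ogre, CG4586 fell by 1.21 in Ab ME (adjusted p = 0.0276) and was higher in Kn ME than in Ab ME by 1.78 (adjusted p = 0.0441). Inx3 lies on another chromosome, where the gene spg overlaps it. No value of spg is given here, and whether the probe set of Inx3 matches spg was not checked. The measured neighbours of Inx3, CG33203, Nepl17 and Nepl18, were dim, with differences of -0.13 to 0.03 from Control.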
